A study of Homo sapiens with 16 samples.

Results

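The genes described here are 10 genes of the tight junction and of epithelial adhesion: the claudins CLDN1, CLDN2, CLDN3, CLDN4, CLDN7 and CLDN12, the membrane protein occludin (OCLN), the scaffold protein ZO-1 (TJP1), E-cadherin (CDH1) and EPCAM. They were chosen by symbol, and each of the 10 matched exactly 1 of the 54127 Ensembl identifiers in the count tables. They were measured by RNA sequencing in HT55 and SW948, 2 established lines of human colorectal cancer cells grown attached to plastic with serum. Each line was exposed to itraconazole, an azole antifungal, at 5 µM for 6 days or to its DMSO control, and each of the 4 groups held 4 libraries. Each group is cultures of 1 tumor line without other cell types of the gut, and in such bulk RNA fewer cells expressing a gene and less of its RNA per cell cannot be told apart. The study asked how itraconazole acts on colorectal cancer cells, and the comparisons were the drug response within each line, the lines against each other under each treatment, and the line-by-drug interaction, that is, the response in SW948 minus the response in HT55.

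Tight junctions seal the space between neighboring epithelial cells near their apical side. Claudins form their strands: several members, such as CLDN1, CLDN3 and CLDN4, tighten the seal, whereas CLDN2 forms pores for small cations and water. OCLN is a further strand protein and TJP1 ties the strands to the actin cytoskeleton. CDH1 holds the adherens junction below them together, and EPCAM, an abundant adhesion protein of the gut epithelium, binds CLDN7 and stabilizes it.

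The libraries held 8269406 to 11110814 counts in genes. Levels are given as counts per 1000000 (CPM), scaled across all 16 libraries with TMM factors, which correct for differences in RNA composition. Without these factors the median log2 difference of all genes tested shifted by -0.17 in the HT55 response and by -0.33 in the SW948 response, so every change below is relative to the bulk of genes. The share of counts in mitochondrial genes was higher with the drug, at 2.83% ± 0.18 against 2.15% ± 0.033 in HT55 and 2.47% ± 0.39 against 1.22% ± 0.19 in SW948 (SD, n = 4), and its part in the results was not tested. Replicate 3 of HT55 with itraconazole stood apart from the other libraries of its group. Without it 7911 of 12263 genes passed the test in HT55 in place of 6553 of 12133, and the 6 junction genes called with it were called in the same direction. The libraries of treated SW948 were uneven as well. A chi-square between the counts of 2 libraries, per degree of freedom, was 4.37 for its replicates 2 and 3 and 25.8 for replicates 1 and 3. Within SW948 with DMSO this value was 5.47 at most.

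A gene counts as called where edgeR's quasi-likelihood test gave an adjusted p below 0.05, with adjustment over all genes tested. In HT55 with itraconazole 5 of the 9 junction genes tested rose (CLDN3, CLDN4, OCLN, CDH1 and EPCAM), 1 fell (CLDN1) and 3 did not pass, and CLDN2 was below the expression filter. The background was high, since 54.0% of all genes tested were called in HT55, 27.5% as higher and 26.5% as lower. In SW948 4 of 10 rose (CLDN3, CLDN4, OCLN and EPCAM), 4 fell (CLDN1, CLDN2, CLDN7 and CDH1) and 2 did not pass. There 80.2% of all genes tested were called, 38.9% as higher and 41.3% as lower, so 8 of 10 is the share of genes in general. Of the 9 genes tested in both lines, 5 were called in both with the same direction, against 39.4% of all genes tested in both lines. CDH1 was called in opposite directions, as were 6.66% of all genes. The same 4 libraries of each group enter several of these comparisons, so the comparisons are not independent of each other.

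**Figure D1:**
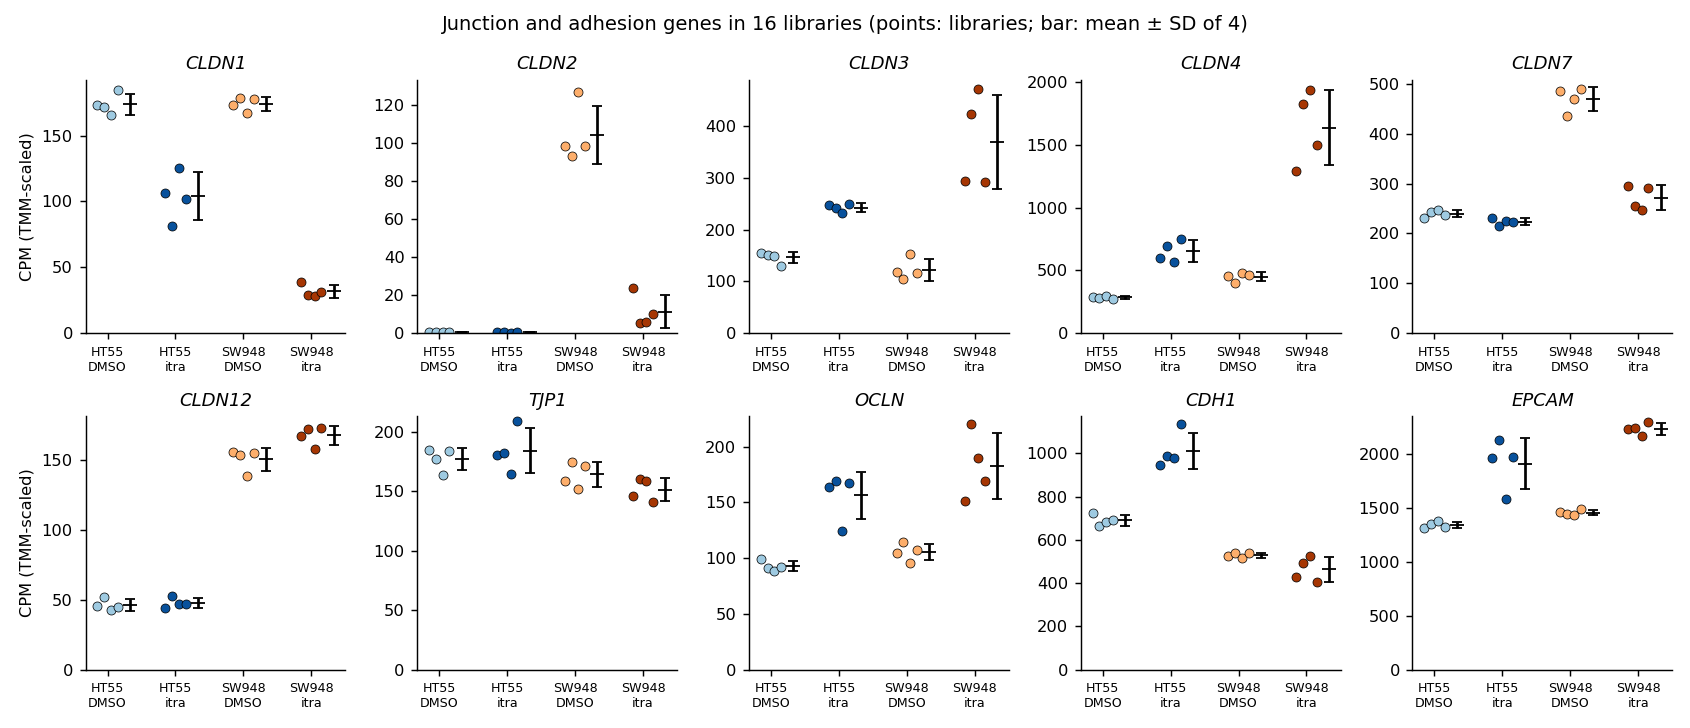
CPM of the 10 genes in each of the 16 libraries (vertical axis from 0, its own scale for each gene), by line and treatment (itra, itraconazole). Points are libraries, and the bar beside them is the mean ± SD of 4. CLDN3, CLDN4, OCLN and EPCAM are higher with the drug in both lines, CLDN1 is lower in both, and CDH1 is higher with the drug only in HT55.

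RefSeq's GRCh38.p14 promoter table held 8 of the 10 genes, with 14 start sites. The 250 bases before the start are printed, 5′ to 3′ on the gene's strand, for a claudin that fell in both lines (CLDN1), the neighboring pair that rose in both (CLDN3 and CLDN4) and a claudin that fell in SW948 and did not pass in HT55 (CLDN7, the second of its 2 starts, chosen because it held motif matches). They lie at chr3:190322447-190322696 (minus strand), chr7:73770271-73770520 (minus), chr7:73830746-73830995 (plus) and chr17:7262479-7262728 (minus).
CLDN1: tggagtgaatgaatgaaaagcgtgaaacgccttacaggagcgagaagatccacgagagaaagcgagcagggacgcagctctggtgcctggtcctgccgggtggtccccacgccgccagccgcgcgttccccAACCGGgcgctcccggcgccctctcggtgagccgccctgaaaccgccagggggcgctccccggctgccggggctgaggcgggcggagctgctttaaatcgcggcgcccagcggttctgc
CLDN3: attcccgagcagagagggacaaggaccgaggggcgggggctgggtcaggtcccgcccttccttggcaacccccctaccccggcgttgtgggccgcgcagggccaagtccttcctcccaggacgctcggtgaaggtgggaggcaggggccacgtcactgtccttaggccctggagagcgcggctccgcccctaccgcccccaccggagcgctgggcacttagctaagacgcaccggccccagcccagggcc
CLDN4: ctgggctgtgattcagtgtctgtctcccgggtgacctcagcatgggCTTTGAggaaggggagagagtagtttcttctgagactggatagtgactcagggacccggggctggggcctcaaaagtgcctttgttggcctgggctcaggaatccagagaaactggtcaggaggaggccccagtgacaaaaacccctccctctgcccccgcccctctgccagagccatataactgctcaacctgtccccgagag
CLDN7: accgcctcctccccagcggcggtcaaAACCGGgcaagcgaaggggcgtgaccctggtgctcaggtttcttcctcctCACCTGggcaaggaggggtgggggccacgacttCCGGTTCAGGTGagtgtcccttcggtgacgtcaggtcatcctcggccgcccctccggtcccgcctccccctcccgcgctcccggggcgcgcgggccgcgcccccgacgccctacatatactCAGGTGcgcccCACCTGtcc

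Capitals mark 3 motifs searched on both strands: the E-box of SNAI and ZEB repressors (CACCTG, on the other strand CAGGTG), the TCF/LEF core (CTTTGA or TCAAAG) and the half-site of grainyhead-like factors (CCGGTT or AACCGG). They matched 17.5%, 11.2% and 5.99% of the 35116 RefSeq promoter windows of this length. The second CLDN7 window held 4 E-boxes and 2 grainyhead half-sites, and in it a half-site and an E-box stand side by side in a single run of capitals. The CLDN1 window held 1 grainyhead half-site, the CLDN4 window 1 TCF/LEF core, and the CLDN3 window none of the 3. The window of the first CLDN7 start and both windows of CLDN2, the claudin that fell most in SW948, held no match either and are not printed. Matches also stood in windows of genes that were not called as lower, and these are not printed. OCLN, which rose in both lines, held 1 E-box in each of its windows and 1 grainyhead half-site at start 2. TJP1, which did not pass in either line, held 1 E-box at start 1 and 1 TCF/LEF core at start 3. The other TJP1 windows and the CLDN12 window held no match. E-boxes were thus not limited to genes that fell. These matches describe the letters of the windows and are not sites shown to be bound.

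CLDN1 (ENSG00000163347, chromosome 3, 190023496 to 190040235, minus strand, GRCh37, as are the other gene positions) encodes a sealing claudin, and it fell in both lines, much further in SW948. In HT55 the 4 DMSO libraries held 174, 172, 166 and 185 CPM, and the 4 itraconazole libraries 107, 81.0, 126 and 102 CPM. In SW948 the values were 173, 179, 167 and 178 CPM with DMSO and 39.1, 28.7, 28.3 and 30.8 CPM with itraconazole. The treatments did not overlap in either line, and with DMSO both lines had a mean of 174 CPM. The log2 fold change was -0.75 ± 0.11 in HT55 (SE, edgeR adjusted p = 0.000361) and -2.48 ± 0.092 in SW948 (adjusted p = 5.79e-11). The difference between the responses was -1.71 ± 0.15 (adjusted p = 4.78e-08, edgeR interaction), so that with the drug CLDN1 was 0.307-fold of its HT55 level in SW948.

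CLDN2 (ENSG00000165376, chromosome X, 106143394 to 106174091, plus strand), the cation pore claudin, was in effect an SW948 gene. In HT55 it had 24 counts over the 4 DMSO libraries and 14 over the 4 itraconazole libraries, or 0.651 ± 0.0732 and 0.411 ± 0.236 CPM (SD, n = 4), and the difference did not pass a two-sided exact permutation test (p = 0.114, smallest possible 0.0286). In SW948 it held 98.8, 93.4, 127 and 98.5 CPM with DMSO and 23.8, 5.28, 5.85 and 10.05 CPM with itraconazole. All 4 treated libraries lay far below the controls, and replicate 1 kept the most. The log2 fold change in SW948 was -3.19 ± 0.30 (SE, edgeR adjusted p = 2.69e-07), the largest fall among the 10 genes, and -3.88 ± 0.16 without replicate 1 of the treated SW948 group. The difference between the responses was -2.47 ± 1.20 and did not pass (edgeR adjusted p = 0.0909). Of 24 alternatives that kept the threshold, 21 did not pass either and 3 did. These 3 were the fit without that library (-3.16, adjusted p = 0.000638), DESeq2 (adjusted p = 0.00355) and no filter on low counts (adjusted p = 7.62e-05). The HT55 counts behind this difference are few, and CLDN2 passed the filter of the interaction fit only through SW948. An exon of RIPPLY1 on the opposite strand overlaps the CLDN2 exons, and RIPPLY1 had 1 count in all libraries.

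CLDN3 (ENSG00000165215, chromosome 7, 73183327 to 73184600, minus strand), a sealing claudin, rose in both lines. In HT55 it went from 155, 151, 149 and 131 CPM to 248, 242, 232 and 250.2 CPM. In SW948 it went from 117, 104, 153 and 116 CPM to 295, 423, 472 and 292 CPM. The treatments did not overlap in either line, and the treated SW948 libraries were the most spread out. Its log2 fold change was 0.73 ± 0.067 in HT55 (SE, edgeR adjusted p = 2.07e-05) and 1.56 ± 0.16 in SW948 (adjusted p = 4.51e-07), and the SW948 response was larger by 0.87 ± 0.19 (adjusted p = 0.000772).

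CLDN4 (ENSG00000189143, chromosome 7, 73213872 to 73247020, plus strand), a sealing claudin of epithelia, had the largest rise of the 10 genes in both lines. In HT55 its libraries held 289.6, 278, 299 and 271 CPM with DMSO and 601, 698, 564 and 749 CPM with itraconazole. In SW948 they held 457, 402, 480.0 and 463 CPM with DMSO and 1292, 1827, 1937 and 1500.3 CPM with itraconazole. The lowest treated library was well above the highest control in each line. The rise was 2.29-fold in HT55 (log2 1.19 ± 0.092 SE, edgeR adjusted p = 7.94e-06) and 3.56-fold in SW948 (log2 1.83 ± 0.12, adjusted p = 4.91e-09). The responses differed by 0.67 ± 0.16 (edgeR adjusted p = 0.00144), and SW948 was already higher with DMSO.

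CLDN3 and CLDN4 lie 29272 bases apart and point in opposite directions. Within 50 kb of the pair, ABHD11 fell in both lines (log2 -0.98 in HT55, edgeR adjusted p = 0.00106, and -0.39 in SW948, adjusted p = 0.000325), and STX1A had a log2 difference of -0.40 in HT55 (adjusted p = 0.0562) and rose by 1.21 in SW948 (adjusted p = 3.84e-07). The pseudogene BICDL3P, whose position overlaps the end of ABHD11, rose in both lines (0.85 and 1.10). The rise of the pair was therefore not shared by ABHD11, its nearest protein-coding neighbor on the CLDN3 side, while METTL27 on the CLDN4 side, tested only in SW948, had a log2 difference of -0.15 (adjusted p = 0.367). These neighbors were named after their values were seen.

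CLDN7 (ENSG00000181885, chromosome 17, 7163222 to 7167302, minus strand) is the claudin that EPCAM binds, and it fell in SW948. There it held 485, 435, 470.2 and 489.7 CPM with DMSO and 295, 256, 247 and 291 CPM with itraconazole, with no overlap. In HT55 the values were 232, 242, 247 and 237 CPM with DMSO and 232, 215, 225 and 222 CPM with itraconazole. The HT55 groups only just separated, with the lowest control and the highest treated library both at 232 CPM. On the log2 scale it changed by -0.82 ± 0.073 in SW948 (SE, edgeR adjusted p = 1.46e-07). In HT55 the log2 difference was -0.10 ± 0.055 (adjusted p = 0.129), and with plain library totals it was -0.27 and passed (adjusted p = 0.00388). The responses differed by -0.69 ± 0.094 (edgeR adjusted p = 6.58e-06).

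CLDN12 (ENSG00000157224, chromosome 7, 90013035 to 90142716, plus strand), a claudin that lacks the usual anchor for scaffold proteins, was the steadiest claudin. In HT55 it held 45.3, 51.9, 42.4 and 44.8 CPM with DMSO and 44.2, 52.8, 47.2 and 46.8 CPM with itraconazole. In SW948 it held 155, 153, 138 and 155 CPM with DMSO and 167, 172, 158 and 173 CPM with itraconazole. The treatments overlapped in HT55 and just separated in SW948. Neither log2 difference passed (0.046 ± 0.087, edgeR adjusted p = 0.670 in HT55, and 0.12 ± 0.063, adjusted p = 0.0910 in SW948), and in SW948 its sign depended on the scaling, with -0.21 (adjusted p = 0.0107) for plain library totals and 0.32 (adjusted p = 0.000129) when corrected for GC content and length. CLDN12 shares 5.2% of its exons with GTPBP10 on the same strand, which had 8432 counts. Reads in the shared part could be among the 1.23% to 1.48% of reads per library set aside as ambiguous, and so be missing from CLDN12.

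**Figure D2:**
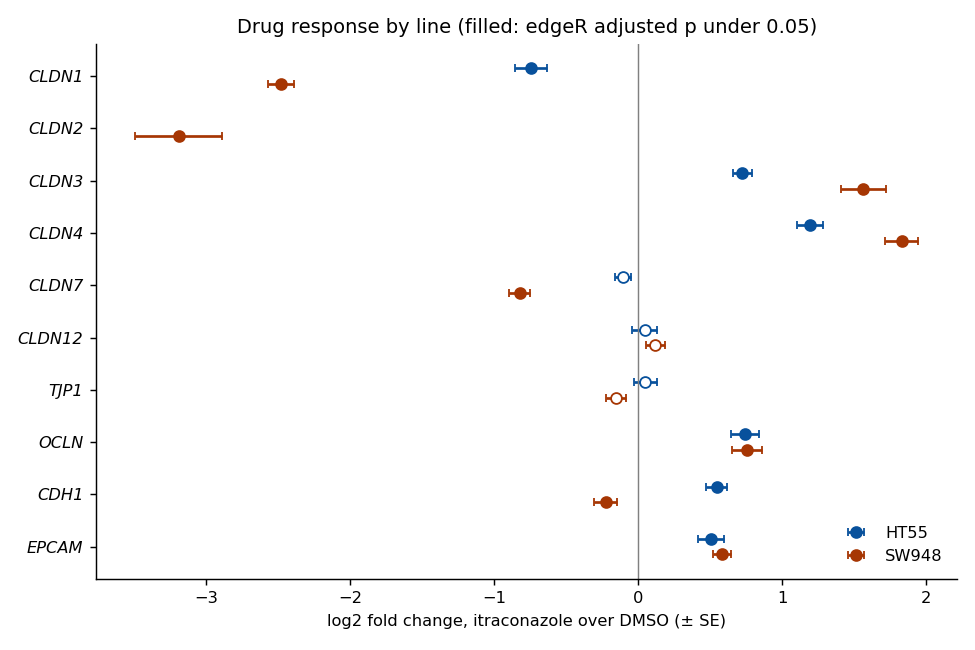
Log2 fold change of each gene, itraconazole over DMSO, in HT55 (blue) and SW948 (brown). Points are edgeR estimates with bars of 1 SE, filled where the adjusted p is under 0.05, and CLDN2 in HT55 is missing because it was below the filter. The widest gap between the lines is in CLDN1, at -0.75 and -2.48, and CDH1 lies on opposite sides of 0.

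To compare claudins with each other, their CPM were divided by the merged exon length. The summed level of the 6 claudins was 327 ± 9.05 CPM per kb in HT55 with DMSO and 455 ± 19.2 with itraconazole, and 482 ± 30.5 and 786 ± 120 CPM per kb in SW948 (SD, n = 4). CLDN4 made up 18.5% ± 0.527 of this sum in HT55 with DMSO and 30.4% ± 2.87 with itraconazole, and 19.9% ± 0.362 and 44.2% ± 2.04 in SW948. CLDN3 made up 35.2% ± 1.73 and 41.9% ± 0.920 in HT55, and 19.9% ± 2.32 and 36.6% ± 3.59 in SW948. In both lines the mean share of the pair was larger with the drug and that of each of the other 4 claudins smaller, CLDN12 included (2.10% and 1.57% in HT55, 4.68% and 3.24% in SW948). A share also moves with the sum, and in HT55 the levels of CLDN2, CLDN7 and CLDN12 themselves did not pass. CLDN7, the leading claudin of SW948 with DMSO at 39.2% ± 1.74, was at 14.3% ± 3.39 with itraconazole. CLDN1 went from 10.01% ± 0.911 to 1.15% ± 0.346 and CLDN2 from 6.34% ± 0.612 to 0.458% ± 0.407 in SW948. With the length of the longest transcript in place of merged exons, the leading claudin of HT55 with DMSO was CLDN7 (33.6% ± 1.03) and not CLDN3 (30.9% ± 1.60).

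**Figure D3:**
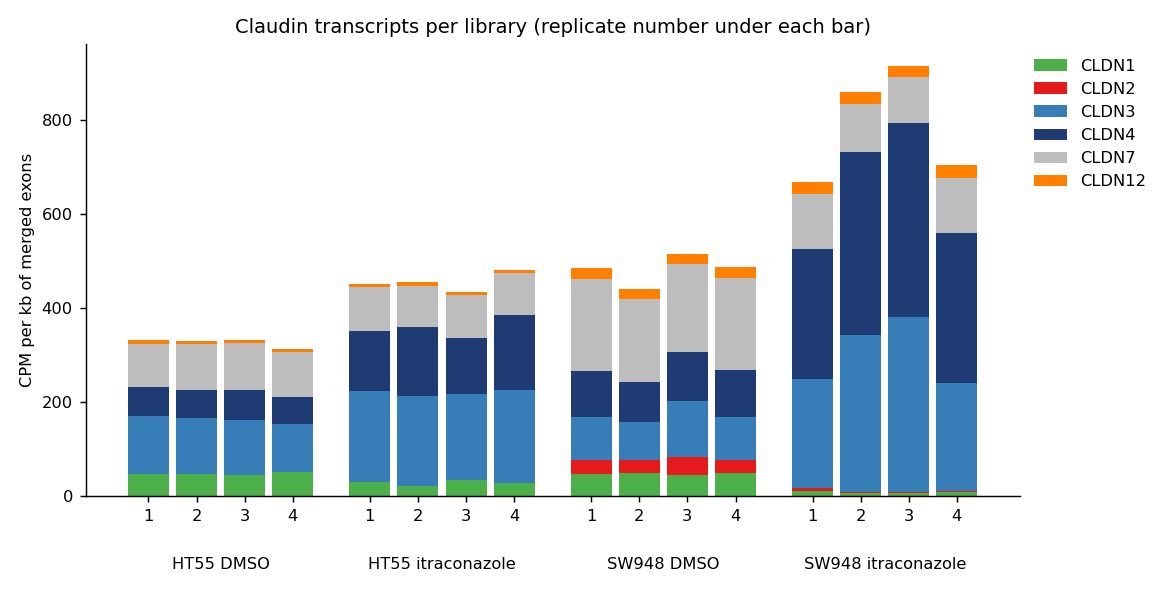
Claudin transcripts in each library, as CPM per kb of merged exons (stacked bars from 0, replicate number under each bar). The summed bar is taller with itraconazole in both lines, at 455 against 327 CPM per kb in HT55 and 786 against 482 in SW948, and the 2 blue layers, CLDN3 and CLDN4, grow while CLDN1, CLDN2 and CLDN7 shrink in SW948.

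OCLN (ENSG00000197822, chromosome 5, 68788119 to 68853931, plus strand), a strand protein of the tight junction, rose in both lines. In HT55 it held 99.2, 91.2, 88.8 and 92.4 CPM with DMSO and 164, 169, 124 and 168 CPM with itraconazole. In SW948 it held 105, 114, 95.9 and 108 CPM with DMSO and 151, 220.4, 189.9 and 169 CPM with itraconazole. Every treated library was above every control of its line, and replicate 3 of treated HT55 was the nearest to them. Its log2 fold change was 0.74 ± 0.096 in HT55 (SE, edgeR adjusted p = 0.000142, and 0.85 without that replicate) and 0.76 ± 0.10 in SW948 (adjusted p = 9.15e-06). The difference between the responses was 0.043 ± 0.15 and did not pass (adjusted p = 0.832). OCLNP1, a pseudogene of OCLN on the same chromosome, had 1 count in all libraries.

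TJP1 (ENSG00000104067, chromosome 15, 29991571 to 30261118, minus strand), the scaffold under the strands, did not pass in either line. HT55 held 185, 177, 164 and 184 CPM with DMSO and 181, 183, 164 and 209.5 CPM with itraconazole. SW948 held 159, 175, 152 and 171 CPM with DMSO and 146, 161, 159 and 141 CPM with itraconazole. The treatments overlapped in both lines. The log2 difference was 0.050 ± 0.079 in HT55 (SE, edgeR adjusted p = 0.608) and -0.15 ± 0.070 in SW948 (adjusted p = 0.0608). Its sign depended on the scaling in both lines: it was -0.12 in HT55 and -0.48 in SW948 (adjusted p = 6.80e-06) with plain library totals, and -0.023 and 0.060 with the GC and length correction.

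CDH1 (ENSG00000039068, chromosome 16, 68771195 to 68869440, plus strand), the cadherin of epithelial adherens junctions, was the gene whose direction differed between the lines. In HT55 it rose from 725, 664, 685 and 690.3 CPM to 948, 986, 981 and 1135 CPM, without overlap. In SW948 it held 524, 539, 517 and 540.2 CPM with DMSO and 427, 495, 527 and 407 CPM with itraconazole. There replicate 3 of the treated group lay among the controls, while replicates 1 and 4 lay lowest. The log2 fold change was 0.55 ± 0.072 in HT55 (SE, edgeR adjusted p = 0.000160) and -0.23 ± 0.082 in SW948 (adjusted p = 0.0209). The fall in SW948 was not called without replicate 1 (-0.17, adjusted p = 0.0523) or replicate 4 (-0.16, adjusted p = 0.0913) of the treated group, nor when GC content and length were corrected for (-0.058, adjusted p = 0.565). The difference between the responses, -0.74 ± 0.11 (edgeR adjusted p = 2.04e-05), was called under all 25 alternatives that kept the threshold, from -0.94 to -0.60.

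EPCAM (ENSG00000119888, chromosome 2, 47572297 to 47614740, plus strand) rose in both lines. HT55 held 1311, 1356, 1378 and 1326 CPM with DMSO and 1965, 2129, 1579.8 and 1977 CPM with itraconazole. SW948 held 1466, 1441, 1433 and 1487 CPM with DMSO and 2229.8, 2239.8, 2169.8 and 2300.2 CPM with itraconazole. The treatments did not overlap, and replicate 3 of treated HT55 was again the library nearest the controls. The log2 fold change was 0.51 ± 0.089 in HT55 (SE, edgeR adjusted p = 0.000923, and 0.60 without that replicate) and 0.58 ± 0.063 in SW948 (adjusted p = 9.54e-07), and the difference of 0.11 ± 0.11 did not pass (adjusted p = 0.425). EPCAM and its partner CLDN7 thus went different ways in SW948, where EPCAM rose and CLDN7 fell.

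Counted over libraries, 7 of the 9 genes tested in HT55 had treatments that did not overlap, where 49.4% of all genes did, and 8 of 10 in SW948, where 74.7% did. The interaction passed for 5 of the 10 genes, with CLDN3 and CLDN4 above 0, where 24.8% of all genes tested were, and CLDN1, CLDN7 and CDH1 below, where 29.1% were, or 53.9% in either direction. The median log2 difference of the tested junction genes was 0.51 in HT55, beside -0.015 for all genes, and -0.015 in SW948, beside -0.025.

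With DMSO CLDN12 was higher in SW948 than in HT55 by 1.71 ± 0.057 on the log2 scale (SE, edgeR adjusted p = 7.73e-19), CLDN7 by 0.98 ± 0.044 (adjusted p = 2.77e-16) and CLDN4 by 0.67 ± 0.049 (adjusted p = 5.32e-12). CDH1 was lower in SW948, by -0.38 ± 0.041 on the log2 scale (adjusted p = 5.34e-09). CLDN2, at means of 0.651 CPM in HT55 and 104 CPM in SW948, passed the filter only through the line where it is high, so its call is no support. In all, 6 genes, CLDN2 among them, were higher and 3 lower in SW948 and CLDN1 did not pass (0.0073 ± 0.043, adjusted p = 0.876, with 0.20 for plain library totals and -0.16 under the GC and length correction, both called), where 84.2% of all genes were called, 42.6% as higher and 41.6% as lower. The libraries of the lines did not overlap for 6 of the 10 genes, where 78.8% of all genes did not. The other calls were small: OCLN 0.19 (adjusted p = 0.00204), EPCAM 0.12 (adjusted p = 0.00789), CLDN3 -0.25 (adjusted p = 0.00380) and TJP1 -0.11 (adjusted p = 0.0445) were not called in a single fit of all 16 libraries, which called 5 of the 10 genes.

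With itraconazole the lines stood apart in CLDN1, which had not passed between them with DMSO. It was lower in SW948 by -1.70 ± 0.15 on the log2 scale (SE, edgeR adjusted p = 5.83e-07), and CLDN3 was higher in SW948 by 0.61 ± 0.14 (adjusted p = 0.00195). With the GC and length correction the CLDN3 difference was smaller, at 0.35 (edgeR adjusted p = 0.0218). CDH1 was further below HT55 (-1.12 ± 0.11, adjusted p = 1.32e-06) and CLDN4 further above it (1.33 ± 0.14, adjusted p = 3.01e-06), while the gap in CLDN7 was 0.29 ± 0.087 (adjusted p = 0.00922). CLDN12 was higher in SW948 by 1.81 ± 0.085 (adjusted p = 3.51e-09). CLDN2, with 14 counts over the treated HT55 libraries, again passed the filter only through SW948, and its means were 0.411 and 11.2 CPM. TJP1 was lower by -0.28 ± 0.091 (adjusted p = 0.0144), but its difference was 0.012 with the GC and length correction. OCLN (0.23, adjusted p = 0.114) and EPCAM (0.23, adjusted p = 0.0718) did not pass. This made 5 genes higher, CLDN2 among them, and 3 lower in SW948, where 76.6% of all genes were called, 37.8% as higher and 38.8% as lower, and 9 of 10 without overlap, where 71.2% of all genes had none.

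Per kb of exon, EPCAM was the most abundant of the 10 transcripts in each group, at 553 ± 12.3 and 787 ± 96.3 CPM per kb in HT55 and 599.5 ± 10.1 and 919.7 ± 21.97 CPM per kb in SW948 with DMSO and itraconazole (SD, n = 4). In HT55 with DMSO CLDN3 (115 ± 8.52) and CDH1 (114 ± 4.17 CPM per kb) followed and did not differ beyond their spread, then CLDN7 (96.2 ± 2.62), CLDN4 (60.5 ± 2.68) and CLDN1 (47.9 ± 2.18). TJP1, OCLN and CLDN12 lay between 15.7 and 6.87 CPM per kb, and CLDN2 was last at 0.191. In SW948 with itraconazole CLDN4 (349 ± 63.1) and CLDN3 (291 ± 71.4 CPM per kb) followed EPCAM with overlapping spreads, whereas CLDN1 (8.75 ± 1.39) and CLDN2 (3.30 ± 2.53 CPM per kb) were the lowest. In treated HT55 CLDN3 (191 ± 6.58) and CDH1 (167 ± 13.7) led after EPCAM, with CLDN4 (139 ± 18.2 CPM per kb) now above CLDN7 (89.7 ± 2.80). In SW948 with DMSO CLDN7 (189 ± 9.89) was next to EPCAM, and CLDN3 (96.2 ± 16.7), CLDN4 (95.8 ± 7.17) and CDH1 (87.3 ± 1.87 CPM per kb) did not differ beyond their spread. The order of CLDN3, CDH1 and CLDN7 depended on the length used: by the longest transcript CDH1 and CLDN7 stood above CLDN3 in HT55 with DMSO.

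Likeness to other genes was described by Pearson's r of log2 CPM over the 16 libraries, among the 9225 other genes whose mean log2 CPM reached 3 (9226 for CLDN2, itself below it). The libraries form 4 groups of shared line and treatment, so r mostly follows the group means. The genes with the highest r were CHTF8 and EBNA1BP2 for CLDN1 (0.997 and 0.996), CRLS1 and MAL2 for CLDN2 (0.987 and 0.985), TMEM259 and KRT80 for CLDN3 (0.985 and 0.983) and SMURF1 and PNRC1 for CLDN4 (0.992 and 0.991). They were ANKH and BPHL for CLDN7 (0.986 and 0.985), ENAH and MXRA7 for CLDN12 (0.995 each), CCNI and WASL for OCLN (0.979 and 0.978), THBS1 and AMPD2 for CDH1 (0.984 and 0.978) and BNIP5 and COPG1 for EPCAM (0.991 and 0.990). TJP1 had no close match (FBXO30 0.876 and ERN1 0.872). Among the 10 genes themselves OCLN and EPCAM were most alike (0.95) and CLDN1 and CLDN4 most opposed (-0.96).

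Of the 18 other claudin genes few were expressed. In HT55 2 were tested and CLDN9 rose (log2 0.47 ± 0.15 SE, edgeR adjusted p = 0.0217), but not with plain library totals. In SW948 5 were tested: CLDN11 (1.43, adjusted p = 0.00163), CLDN10 (1.40, adjusted p = 0.000268), CLDN9 and CLDN15 rose, and CLDN16, a claudin of renal magnesium transport, fell (-1.16, adjusted p = 0.0126). The calls, 1 of 2 in HT55 and 5 of 5 in SW948, stand beside 54.0% and 80.2% of all genes tested. These claudins were all low: CLDN15, the highest, had a mean of 14.8 CPM in treated SW948, and CLDN10 had no counts in HT55.

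Of the 27 other tight junction genes listed, 15 of the 22 tested in HT55 rose and 1 fell, with a median log2 difference of 0.38 beside -0.015 for all genes, and 17 of the 23 tested in SW948 rose and 3 fell, with a median of 0.49 beside -0.025. Of all genes 27.5% and 38.9% rose. With plain library totals the counts were 8 rising and 2 falling in HT55 and 11 and 4 in SW948. TJP3, the scaffold ZO-3, rose in both lines (1.56 ± 0.099 in HT55, edgeR adjusted p = 3.34e-06, and 1.93 ± 0.097 in SW948, adjusted p = 6.04e-10), unlike its relative TJP1. MARVELD3, a relative of OCLN, rose by 1.23 ± 0.13 in HT55 (adjusted p = 5.03e-05) and by 1.29 ± 0.10 in SW948 (adjusted p = 5.48e-08). CGNL1, which binds junctional actin, rose by 3.08 ± 0.15 in SW948 (adjusted p = 5.86e-10), from 2.10 to 18.4 mean CPM. ILDR1, a protein of junctions where 3 cells meet, fell in both lines (-0.82 in HT55, adjusted p = 0.000257, and -1.11 in SW948, adjusted p = 2.96e-06), and the scaffold MAGI3 fell in SW948 (-1.28, adjusted p = 2.69e-07) and rose in HT55 (0.32, adjusted p = 0.00554; not called with plain library totals).

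**Figure D4:**
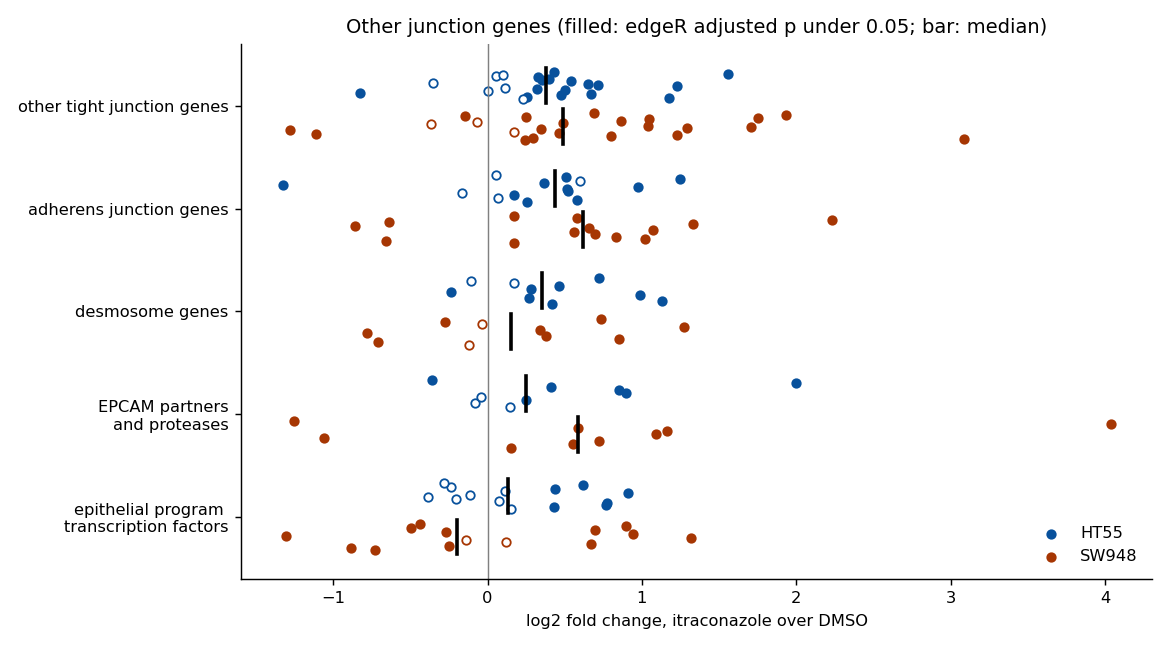
Log2 fold change with itraconazole of the other junction and epithelial genes that were tested, by list, in HT55 (blue) and SW948 (brown). Each point is a gene, filled where the edgeR adjusted p is under 0.05, the vertical position within a row only separates points, and the bar is the list's median. The tight junction points lie mostly right of 0 in both lines, with medians of 0.38 and 0.49, and CGNL1 in SW948 is the farthest of them at 3.08.

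Of the 14 adherens junction genes, all tested, HT55 had 9 rising and 1 falling (median log2 0.44) and SW948 11 rising and 3 falling (median 0.62), where 27.5% and 26.5% of all genes rose and fell in HT55 and 38.9% and 41.3% in SW948. With plain library totals these were 7 and 2, and 9 and 4. NECTIN4 rose in both lines (1.24 ± 0.16, edgeR adjusted p = 0.000140, and 2.23 ± 0.16, adjusted p = 1.56e-08), as did NECTIN2 (0.36 and 1.33), whereas NECTIN1 fell in both (-1.33 ± 0.10, adjusted p = 7.63e-06, and -0.86 ± 0.084, adjusted p = 3.80e-07). The nectins are adhesion proteins that start cell contacts. LIMA1, an actin-binding protein of the cadherin complex, rose in both lines (0.98 and 0.66). CDH17, the intestinal cadherin, rose in HT55 (0.58 ± 0.060, adjusted p = 4.02e-05) and fell in SW948 (-0.66 ± 0.091, adjusted p = 1.21e-05), with an interaction of -1.21 ± 0.12 (adjusted p = 1.21e-07).

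Of 10 desmosome genes tested, HT55 had 7 rising and 1 falling (median 0.35) and SW948 5 rising and 3 falling (median 0.15). The shares called, 8 of 10 in each line, stand beside 54.0% and 80.2% of all genes. The balance in SW948 turned to 3 rising and 5 falling with plain library totals, and HT55 then had 3 and 2. DSP, desmoplakin, rose by 0.99 ± 0.076 in HT55 (edgeR adjusted p = 7.94e-06). DSC3, a desmosomal cadherin of low level, rose in HT55 (1.13, adjusted p = 0.00370) and fell in SW948 (-0.71, adjusted p = 3.86e-07). PKP1 (1.27, adjusted p = 9.97e-10) and DSG2 (0.85, adjusted p = 5.46e-08) rose in SW948, and EVPL, envoplakin, fell there (-0.78, adjusted p = 4.42e-06). Its log2 difference in HT55 was -0.23 (edgeR adjusted p = 0.0437), a call lost in 7 of the 8 fits that left out a library.

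Of 9 partners and proteases of EPCAM, HT55 had 5 rising and 1 falling and SW948 7 rising and 2 falling, with medians of 0.25 and 0.59 beside -0.015 and -0.025 for all genes, of which 54.0% and 80.2% were called. With plain library totals these were 3 and 2, and 6 and 2. The protease inhibitors SPINT1 (0.90 in HT55, adjusted p = 5.37e-06) and SPINT2 (1.16 in SW948, adjusted p = 3.59e-08), which guard EPCAM from the protease matriptase, rose. TSPAN8, a tetraspanin that joins complexes of EPCAM and CLDN7, fell in both lines (-0.36, adjusted p = 0.00599, and -1.25, adjusted p = 7.37e-07), and PSEN2, a subunit of the protease that cuts EPCAM, fell in SW948 (-1.06, adjusted p = 2.76e-06).

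Among 14 regulators of the epithelial program HT55 had 6 rising and 0 falling, and SW948 5 rising and 7 falling, with medians of 0.13 and -0.19, beside the same 54.0% and 80.2% of all genes called. With plain library totals HT55 had 5 rising and 4 falling and SW948 4 rising and 9 falling. GRHL3 rose in both lines (0.91, edgeR adjusted p = 0.00265, and 0.94, adjusted p = 0.00502), and so did ELF3 (0.77, adjusted p = 1.17e-05, and 0.67, adjusted p = 0.000351). In SW948 GRHL1 rose (1.32, adjusted p = 2.31e-09), while GRHL2 (-1.31, adjusted p = 9.73e-09) and CDX2 (-0.88, adjusted p = 0.000166) fell. Of 9 mesenchymal genes only 2 were tested in each line, and both rose: SNAI1, a repressor of CDH1, from 6.57 to 13.3 mean CPM in HT55 (1.01, adjusted p = 0.000435) and from 2.501 to 29.0 in SW948 (3.48, adjusted p = 1.42e-09), with TWIST1 in HT55 (1.06, adjusted p = 0.0116) and FN1 in SW948 (2.88, adjusted p = 5.38e-09). CDH2 had no counts in any group, and VIM, the mesenchymal filament gene, was at 0.0994 CPM or less.

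The 8 colon epithelial markers were detected in each group and summed to 5303 to 9282 CPM per library. In edgeR HT55 had 4 rising (such as KRT20, 1.13, and CDH17) and 1 falling (KRT19, -0.19). The KRT19 call in HT55 was lost in 5 of the 8 fits without a library. SW948 had 5 rising (such as KRT19, 1.34, and KRT8, 1.03) and 3 falling (such as CDX2 and CDH17). The background for these 5 and 8 calls was 54.0% of genes in HT55 and 80.2% in SW948. Plain library totals gave 3 rising and 2 falling markers in HT55, and 4 and 3 in SW948. Markers of other cell types summed to 20.8 to 33.6 CPM per library with DMSO, to 22.4 to 63.1 CPM in treated HT55 and to 118 to 123 CPM in treated SW948, 11 of 12 being matched. Most of this was CD68, a lysosomal gene, which rose by 2.39 in SW948 (edgeR adjusted p = 2.02e-10), where COL1A1 rose (1.65, adjusted p = 9.01e-07) and SYP fell (-2.83, adjusted p = 0.000210). The leukocyte gene PTPRC was at 0 in 3 groups and the T-cell gene CD3E in all 4. What part cells with CD68 had in the changes of the junction genes was not tested.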

How the data were processed

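Total RNA of 16 cultures was made into Illumina TruSeq libraries and sequenced as single 50-base reads. Reads were aligned to hg19, and the submitters' processing notes list TopHat, HTSeq and DESeq without versions. The deposited files hold raw counts of reads per Ensembl gene, 1 file a library, which the authors had not normalized. The 5 total lines of each file were left out; they held 28.2% to 32.9% of all reads, mostly reads without a unique place, so near-identical copies lose reads. Whether counting used strand is not given in the sources used here.

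Symbols, positions and exon lengths came from GENCODE v44lift37 (GRCh37); identifiers with a symbol held 97.8% of counts. Groups came from the labels, and the study states biological quadruplicates. Each comparison was fitted on its 8 libraries, the interaction on 16, with edgeR 4.0.16 in R 4.3.3 (TMM, filterByExpr, quasi-likelihood test, Benjamini-Hochberg adjustment over all genes tested). A gene below the filter had an exact permutation test of CPM over 70 assignments. Depth, 8269406 to 11110814 counts a library, limits low genes such as CLDN2 in HT55. Alternatives were DESeq2 1.42.0, other normalizations and filters, thresholds, a replicate block, a single fit, removal of dominant genes, a correction for GC content and length, and leaving out each library. The scripts were tested on simulated data. The 10 genes, the other lists and the motifs were chosen with earlier results of these data known. All 10 were named, and from each other list up to 2 genes that rose and 2 that fell most in each line, with the other line's value for some, and the 2 genes most like each of the 10. A single gene of these other lists is not reported here by name, though it is in its list's counts.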

Additional observations from a re-analysis of the deposited data

Results flagged for a closer look

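Of the 40 sets of 4 libraries (10 genes in 4 groups), 3 had a library whose gap to the nearest other, divided by the range of its group, exceeded Dixon's critical value, where chance gives about 1 in 20, or 2 of 40. CLDN2 in SW948 with DMSO was highest in replicate 3 (127 CPM, gap 0.841 of the range), and CLDN12 in the same group was lowest in replicate 3 (138 CPM, 0.866). OCLN in HT55 with itraconazole was lowest in replicate 3 (124 CPM, 0.88).

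The response to itraconazole differed between the lines, by the edgeR interaction test, for 5 genes. These were 50.0% of the junction genes, beside 53.9% of all genes tested, so the share was no larger than that of genes in general. On the log2 scale the response in SW948 minus that in HT55 was -1.71 for CLDN1, 0.87 for CLDN3, 0.67 for CLDN4, -0.69 for CLDN7 and -0.74 for CDH1.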

How the results depend on the processing

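Adding a log2 fold change of at least 1 to the threshold left 1169 and 4001 genes called in the HT55 and SW948 responses, 4153 and 4923 between the lines with DMSO and with itraconazole, and 2760 in the interaction; of the 10 genes it left 1, 4, 2, 5 and 1. A single fit of all 16 libraries called 5 of the 10 between the lines with DMSO, in place of 9. Leaving out 1 library at a time gave 6 of the 10 genes in HT55 each time, 7 to 10 in SW948, 8 to 9 and 7 to 9 between the lines and 5 to 6 in the interaction, and 5560 to 7911, 9686 to 10294, 10656 to 10909, 9173 to 9629 and 6762 to 7450 of all genes. With plain library totals 32.6% of calls were higher in HT55 and 31.5% in SW948 (51.0% and 48.5% with TMM), 60.2% between the lines with DMSO (50.5%) and 31.8% in the interaction (46.1%); the GC and length correction shifted the median of SW948 by 0.11.

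Same-numbered libraries deviated together weakly at most (correlations of -0.025 to 0.12 in HT55 and -0.0035 to 0.10 in SW948). The libraries numbered 3 had the highest value in each line, beside at most 0.050 and 0.045 for differently numbered libraries. The labels do not say whether equal numbers share a culture, so the numbers were not taken to pair libraries. With the replicate block 6300 genes were called in HT55 and 9973 in SW948, and 6 and 8 of the 10, as without it. The block alone turned no sign of the 10 genes.

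Signs turned for log2 differences that had not passed in edgeR, and for TJP1 between the lines, where it had. In HT55 they were TJP1 (-0.12 plain totals, -0.023 GC and length correction, -0.025 that correction and the block together, -0.013 without itraconazole replicate 4), CLDN12 (-0.12 plain totals, -0.0039 without itraconazole replicate 2), PSEN2 (0.011 without DMSO replicate 2, and down to -0.085 without the others) and KRT8 (-0.059 plain totals). In SW948 they were TJP1 (0.060 corrected, 0.056 corrected and blocked) and CLDN12 (-0.21 plain totals). Between the lines they were TJP1 (0.086 plain totals with DMSO; 0.012 corrected and 0.011 corrected and blocked with itraconazole) and CLDN1 with DMSO (-0.16 corrected, also when blocked as well, and passed at adjusted p = 0.000247; -0.00026, -0.0048 and -0.020 without HT55 replicates 1, 2 and 3, -0.00048 without SW948 replicate 4, and up to 0.031 without the others). In the interaction they were TJP1 (0.093 corrected, 0.092 corrected and blocked), EPCAM (-0.080), CLDN12 (-0.087) and OCLN (-0.15) with plain totals, and OCLN without HT55 itraconazole replicate 3 (-0.064), SW948 DMSO replicate 3 (-0.0032) or SW948 itraconazole replicate 2 (-0.059), with up to 0.13 without the others. The cause was not tested. Over the named genes, 2233 of 2417 alternative values kept direction and side of the threshold, 130 lost the call, 26 gained one and 28 turned.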
